A study of Mus musculus with 11 samples.

Results

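Replication-dependent histone genes supply the H1, H2A, H2B, H3 and H4 proteins that package newly copied DNA, and their RNA was examined here in the forelimb bud of the E10.5 mouse, the stage of early limb bud outgrowth. The genes were taken by name: rows of the count table whose symbol begins with Hist1h, Hist2h, Hist3h or Hist4h and which held at least 10 reads summed over the 11 libraries. Of 70 rows with such names, 48 met this minimum among the 47517 rows of the table. They comprised 6 H1, 7 H2A, 15 H2B, 9 H3 and 11 H4 genes. By cluster, 41 lie in Hist1, 4 in Hist2, 2 in Hist3 and 1 in Hist4. Just inside the minimum was Hist1h3i with 13 reads, and just outside were Hist1h2ao and Hist1h2ap with 7 reads each. Of the 22 rows left out, 8 held 0 reads.

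Mutant buds (6 libraries) were Gmnn f/f; Prx-Cre and control buds (5 libraries) were Gmnn +/f; Prx-Cre, all on a C57BL/6 background. Controls thus carry the Cre transgene and a floxed allele as well, and nothing is known from these libraries about buds with both alleles intact. Prx-Cre is active in limb bud mesenchyme, so ectoderm, endothelium, blood and ingrowing muscle precursors of the same bud are outside its main domain. Gmnn encodes Geminin, which restrains re-licensing of replication origins by binding Cdt1, and the series title places its loss in the context of Hox gene control in the limb. Litter A supplied controls 1 and 2 with mutants 1 and 2, litter B control 3 with mutant 6, litter C control 4 with mutant 5, and litter D control 5 with mutants 3 and 4.

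These histone genes are transcribed mainly in S phase. Their mRNAs have no introns as a rule and end in a short stem-loop instead of a poly(A) tail. The stem-loop binding protein SLBP holds that hairpin while the U7 small nuclear ribonucleoprotein directs cleavage behind it, and the mRNAs decay when DNA synthesis stops. Many H2A and H2B genes lie head to head over a shared promoter, so that a single stretch of DNA starts both transcripts. In proliferating tissue such as the limb bud this set provides the bulk of new nucleosomes, whereas variant histones from other genes are made outside S phase as well.

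The hairpin that defines the class was found in the annotation of most of the set. A 16-base stem-loop began 21 to 54 bases (median 30.5) after the stop codon of 36 of the 48 genes, and lay inside the exon that was counted for 33 of them. Of the 12 genes without it, 9 have a GENCODE M21 transcript that ends at the stop codon, so these letters could not be searched there. The other genes without it were Hist1h1a, whose transcript runs 48 bases past the stop codon, and Hist1h2bc and Hist2h2be, whose transcripts run 742 and 2192 bases past it. In the sites below, from the GENCODE M21 transcripts (GRCm38, the assembly of mm10), capitals mark the stem-loop. They are shown because they are the shared feature by which the class is known, and because H4 genes differ from the others in it.
Hist1h2ae, chr13:23570668-23570683, minus strand: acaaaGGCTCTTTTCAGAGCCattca
Hist2h2ac, chr3:96220418-96220433, minus strand: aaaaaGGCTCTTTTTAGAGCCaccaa
Hist1h3e, chr13:23561903-23561918, minus strand: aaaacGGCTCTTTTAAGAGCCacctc
Hist1h1c, chr13:23739512-23739527, plus strand: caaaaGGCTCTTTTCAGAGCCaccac
Hist1h4d, chr13:23581950-23581965, plus strand: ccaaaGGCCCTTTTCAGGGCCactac
The first of these hairpins was the most frequent form in H1, H2A and H2B genes, and was present in 3 H1, 4 H2A, 8 H2B and 3 H3 genes. H4 genes had other stems: the form printed for Hist1h4d was present in 5 H4 genes. In all, 8 distinct hairpins were found.

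RefSeq promoter windows (GRCm38.p6), from 250 bases before to 50 after the transcript start, were matched for 43 of the 48 genes; Hist1h2bc, Hist1h3a, Hist1h3f, Hist2h2be and Hist2h4 had no match. Windows were searched on both strands for 4 motifs known from histone promoters. TATAAA, the TATA box, was in 58.1% of the histone windows against 13.6% of all 32851 RefSeq windows. CCAAT, a motif bound by NF-Y, was in 83.7% against 37.4%, and was in every matched H1, H2A, H2B and H3 window but in 3 of 10 H4 windows. The octamer ATTTGCAT, bound by OCT1 and best known from H2B promoters, was in 20.9% against 1.74%: in 4 of 7 H2A and 5 of 13 H2B windows, and in none of the 6 H1, 7 H3 or 10 H4 windows. The H1 promoter motif AAACACA was in 16.3% against 7.18%, including 5 of 6 H1 windows. Windows of head-to-head neighbours overlap and share their matches. The windows of the 4 H2A genes with an octamer are printed because the largest genotype differences below fell in 3 of them. They did not fall in the fourth, Hist3h2a. The 5 H2B genes with an octamer had log2 fold changes of 0.26 (Hist1h2bm), 0.03 (Hist1h2bk), -0.11 (Hist1h2bg), 0.39 (Hist1h2bb) and 0.52 (Hist2h2bb). The part of the octamer was not tested. The window of Hist1h4d, the gene with most reads, stands for comparison. Capitals mark the motifs searched, on either strand.
Hist1h2ae, chr13:23571171-23571470, minus strand: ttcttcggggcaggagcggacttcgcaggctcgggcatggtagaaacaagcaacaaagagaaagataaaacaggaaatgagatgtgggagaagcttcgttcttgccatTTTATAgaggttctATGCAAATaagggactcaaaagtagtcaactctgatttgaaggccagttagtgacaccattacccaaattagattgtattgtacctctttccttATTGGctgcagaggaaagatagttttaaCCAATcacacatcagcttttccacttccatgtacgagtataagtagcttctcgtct
Hist1h2ab, chr13:23750838-23751137, plus strand: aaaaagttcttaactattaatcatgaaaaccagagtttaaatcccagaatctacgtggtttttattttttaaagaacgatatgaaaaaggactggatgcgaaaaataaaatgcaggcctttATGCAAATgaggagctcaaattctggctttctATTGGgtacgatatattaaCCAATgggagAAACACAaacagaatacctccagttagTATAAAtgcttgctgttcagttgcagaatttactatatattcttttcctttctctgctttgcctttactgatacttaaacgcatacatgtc
Hist2h2ac, chr3:96220831-96221130, minus strand: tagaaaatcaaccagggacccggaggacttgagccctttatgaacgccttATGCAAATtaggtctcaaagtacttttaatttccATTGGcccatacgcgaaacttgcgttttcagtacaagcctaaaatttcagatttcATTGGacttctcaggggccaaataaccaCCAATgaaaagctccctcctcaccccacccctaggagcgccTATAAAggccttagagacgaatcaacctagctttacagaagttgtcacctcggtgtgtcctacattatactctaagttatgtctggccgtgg
Hist3h2a, chr11:58954435-58954734, plus strand: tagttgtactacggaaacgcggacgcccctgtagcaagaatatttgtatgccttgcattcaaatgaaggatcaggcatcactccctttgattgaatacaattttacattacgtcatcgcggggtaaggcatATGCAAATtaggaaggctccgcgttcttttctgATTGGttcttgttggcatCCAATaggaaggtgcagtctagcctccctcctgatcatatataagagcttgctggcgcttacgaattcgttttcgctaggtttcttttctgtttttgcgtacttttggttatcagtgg
Hist1h4d, chr13:23581318-23581617, plus strand: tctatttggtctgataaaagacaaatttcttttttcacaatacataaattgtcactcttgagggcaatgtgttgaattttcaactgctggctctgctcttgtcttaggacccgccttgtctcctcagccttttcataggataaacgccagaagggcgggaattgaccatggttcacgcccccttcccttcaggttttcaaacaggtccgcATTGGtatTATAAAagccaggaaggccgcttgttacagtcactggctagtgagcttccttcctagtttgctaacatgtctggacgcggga
A motif match describes these letters only and shows no binding.

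Total counts per library ran from 14777833 to 19733288 in controls and from 14721181 to 17034741 in mutants. Histone genes held 3145 to 3980 reads per control library and 2255 to 3852 per mutant library, which is 0.0153% to 0.0243% of a library's counts. Levels are given as CPM, the reads of a gene relative to the TMM-scaled total of its library. The targeted gene Gmnn was lower in every mutant than in every control, at 150.3, 199, 139.3, 170.6 and 238.9 CPM in controls 1 to 5 and 103.4, 137.7, 118.8, 130, 102.2 and 99.51 CPM in mutants 1 to 6. Its log2 fold change, mutant over control, was -0.67 (SE 0.10, edgeR adjusted p = 0.0291); leaving out control 2, 3 or 4 or mutant 1, 3, 4, 5 or 6 took the adjusted p past 0.05, to 0.139 at most, without changing its direction. Summed forelimb mesenchyme markers (Prrx1, Prrx2, Tbx5, Twist1, Msx1) lay at 445 to 611 CPM in controls and 484 to 547 CPM in mutants, against 0.841 to 6.8 and 2.02 to 2.91 CPM for the hindlimb markers Tbx4 and Pitx1. Red cell markers had the widest range in absolute CPM, from 9400 to 23500 CPM in controls and from 11600 to 40500 CPM in mutants. Relative to their low level, macrophage markers ranged more widely, from 2.1 to 21 CPM in controls and from 6.92 to 27.4 CPM in mutants. The part of these cells in the histone values was not tested. Of the cell type markers tested, 1 of 5 for muscle was called between genotypes and none for the other types (edgeR), against 2.18% of all genes. Only 1 of 2 hindlimb markers and 3 of 5 for neural crest and Schwann precursors were tested. Since these are whole buds, fewer cells of a type and less RNA per cell cannot be told apart.

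The libraries also differed in a property of the table that went in part, but not wholly, with genotype. Transcripts of 959 tested genes contain a run of at least 18 T, and the mean log2 CPM of these genes, called the T-run index here, was 4.82, 4.72, 4.80, 4.77 and 4.45 in controls 1 to 5 and 4.49, 4.26, 4.40, 4.38, 4.63 and 4.54 in mutants 1 to 6. Controls 1 to 4 and mutant 5 were the 5 libraries with the highest index, and controls 1 to 4 lay above every mutant. A model with both the index and genotype therefore cannot fully tell them apart. With the index as a covariate, edgeR calls over all genes fell from 345 to 2. The longest run in the counted exons of the histone genes was 13, in the sequence that transcripts supplied, which was whole for 46 of the 48 genes and covered 22.87% of Hist2h2bb. This order of libraries recurs below.

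Most histone reads came from a few genes. Hist1h4d alone held 12663 of the 36798 histone reads (34.4%), Hist1h1b 6869 (18.7%) and Hist1h4i 3936 (10.7%), and 23 of the 48 genes held fewer than 100 reads. By type, H4 genes held 48.8% of the reads, H1 33.1%, H2B 12.8%, H2A 3.83% and H3 1.43%. Per kb of counted exon, Hist1h4d stood at 176.2 CPM, Hist1h1b at 51.08 CPM and Hist1h4i at 29.8 CPM, while the highest H2B, H2A and H3 genes (Hist1h2bm, Hist1h2ae and Hist1h3c) reached 9.242, 6.558 and 2.227 CPM per kb. The 4 core types, which enter the nucleosome in equal amounts, were thus unequal in these counts. The share of 50-base windows not found in transcripts of other genes had a median of 95.7% in H1, 60.5% in H4, 42% in H2A, 40.6% in H2B and 31.2% in H3 genes, and reads from near-identical copies were kept or lost by mapping quality. Values of single genes with much shared sequence are therefore uncertain as to which copy they come from.

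RNAs that lack a poly(A) tail by other routes were also sparse. Of a list of 10 such RNAs, with counted exons of 102 to 423 bases, 3 passed the filter on low counts. Rn7s1 and Rn7s2 held 0 reads. The part of their short length in these counts was not tested, nor was how fully RNA without a poly(A) tail was recovered. Histone values here are therefore of the RNA that was counted and may not stand for all histone mRNA of the bud. Rpph1, the RNA of ribonuclease P, had 1882 reads over all libraries, the vault RNA Vaultrc5 158, the 7SK RNA Rn7sk 83 and Rmrp 22. None of the 3 tested was called by edgeR (0 also at an unadjusted p under 0.05), nor by DESeq2, which gave an adjusted p for 1, and their median log2 fold change was 0.42.

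The level of the histone set as a whole overlapped between mutants and controls. Summed over the 48 genes, it was 209.1 ± 11.92 CPM in controls (SD, n = 5) and 195.4 ± 35.37 CPM in mutants (SD, n = 6). The sums were 217.1, 204.9, 212.8, 190.5 and 220.4 CPM in controls 1 to 5 and 211.2, 254.8, 178.6, 199.8, 154.1 and 173.8 CPM in mutants 1 to 6. Mutant 2 was the highest and mutant 5 the lowest of all libraries, so the groups overlapped. Within litters the summed level differed, mutant minus control on the log2 scale, by 0.14, -0.29, -0.31 and -0.22 in litters A, B, C and D.

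**Figure D1:**
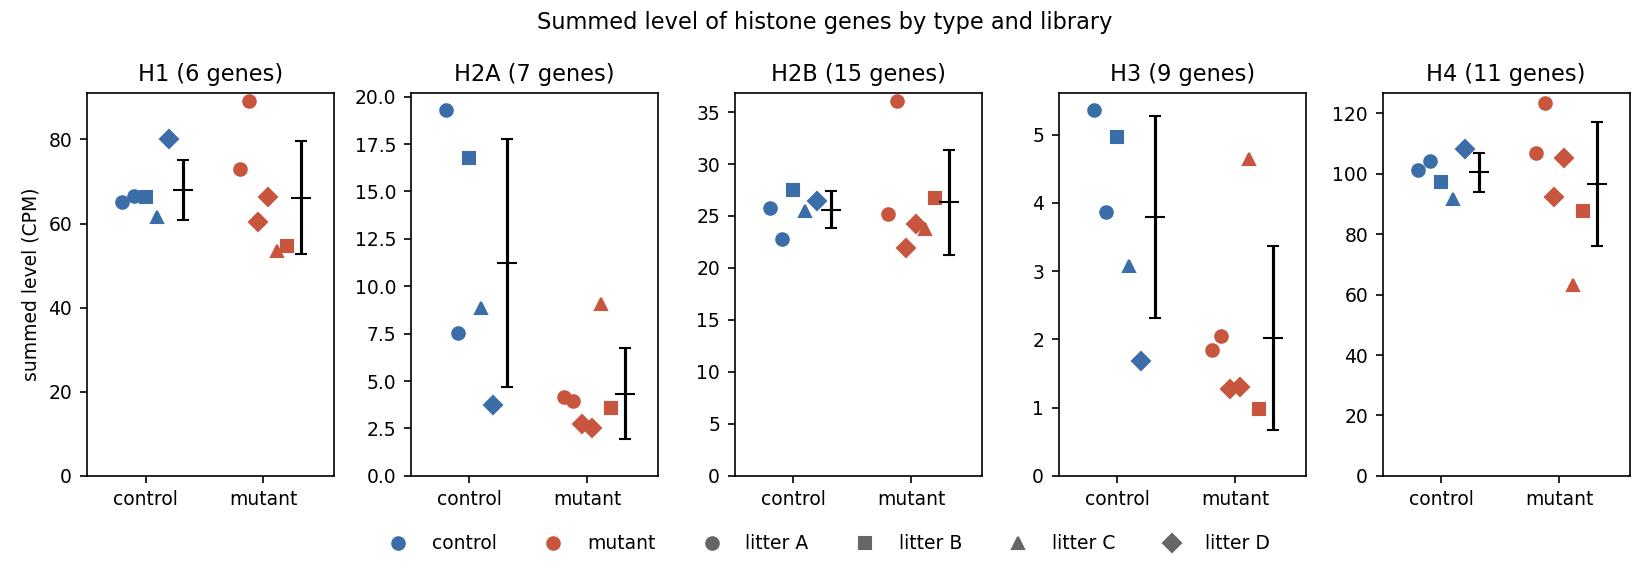
Summed level (CPM, vertical axis from 0) of all genes of each histone type in each library, controls in blue and mutants in red, with the litter given by the symbol and group mean ± SD in black. H2A sums ran from 3.714 to 19.3 CPM in controls and from 2.497 to 9.087 CPM in mutants, and H3 sums were likewise split between libraries. H1, H2B and H4 sums overlapped widely, with mutant H4 sums from 63.2 to 123.6 CPM.

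Of the 48 genes, 32 passed the filter on low counts and were tested, and 16 did not. In edgeR's quasi-likelihood F test, blocked by litter, 0 of the 32 passed an adjusted p of 0.05, against a background of 2.18% of all 15821 genes tested (1.48% lower and 0.702% higher in mutants). At an unadjusted p under 0.05 there were 5 of 32 (15.6%), all lower in mutants (Hist2h2ac, Hist1h2ae, Hist1h2ab, Hist1h3e and Hist1h1c), against 21.4% of all genes in either direction and 11.5% lower. DESeq2 gave an adjusted p for 12 of the 32 and none for the other 20, Hist1h2ab and Hist2h2ac among them. It called 1 of the 12, Hist1h2ae, against 10.1% of the 11833 genes with an adjusted p. The median log2 fold change was -0.04, with 17 genes lower and 15 higher, against 0.00 over all genes tested. None of the 32 genes had all mutants below or all mutants above the controls, which held for 1.3% and 1.29% of all genes. Lower in mutants in each of the 4 litters were 4 of 32 (12.5%, background 13.2%): Hist2h2ac, Hist1h1c, Hist1h1e and Hist1h4j. The number of calls over all genes depended on which libraries were in the fit. Without mutant 5 or control 4 it fell from 345 to 1, as it did without litter C. Those libraries are the single pair of litter C, and leaving out either takes that litter out of the genotype contrast. The number was 3 to 15 without control 1, 2 or 3 or mutant 1, 3, 4 or 6. Without mutant 2 it was 279, and without control 5 it rose to 850.

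Medians differed by type. H1 genes had a median log2 fold change of -0.05, H2B of 0.10 and H4 of -0.07, all near 0. H2A genes had a median of -1.55, with 3 of 6 tested genes at an unadjusted p under 0.05. H3 genes had a median of -1.04 (-0.07 with the T-run covariate), but only Hist1h3c and Hist1h3e of the 9 H3 genes were tested. The H2A median was 0.16 with that covariate. Whether types differ from one another was not tested.

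**Figure D2:**
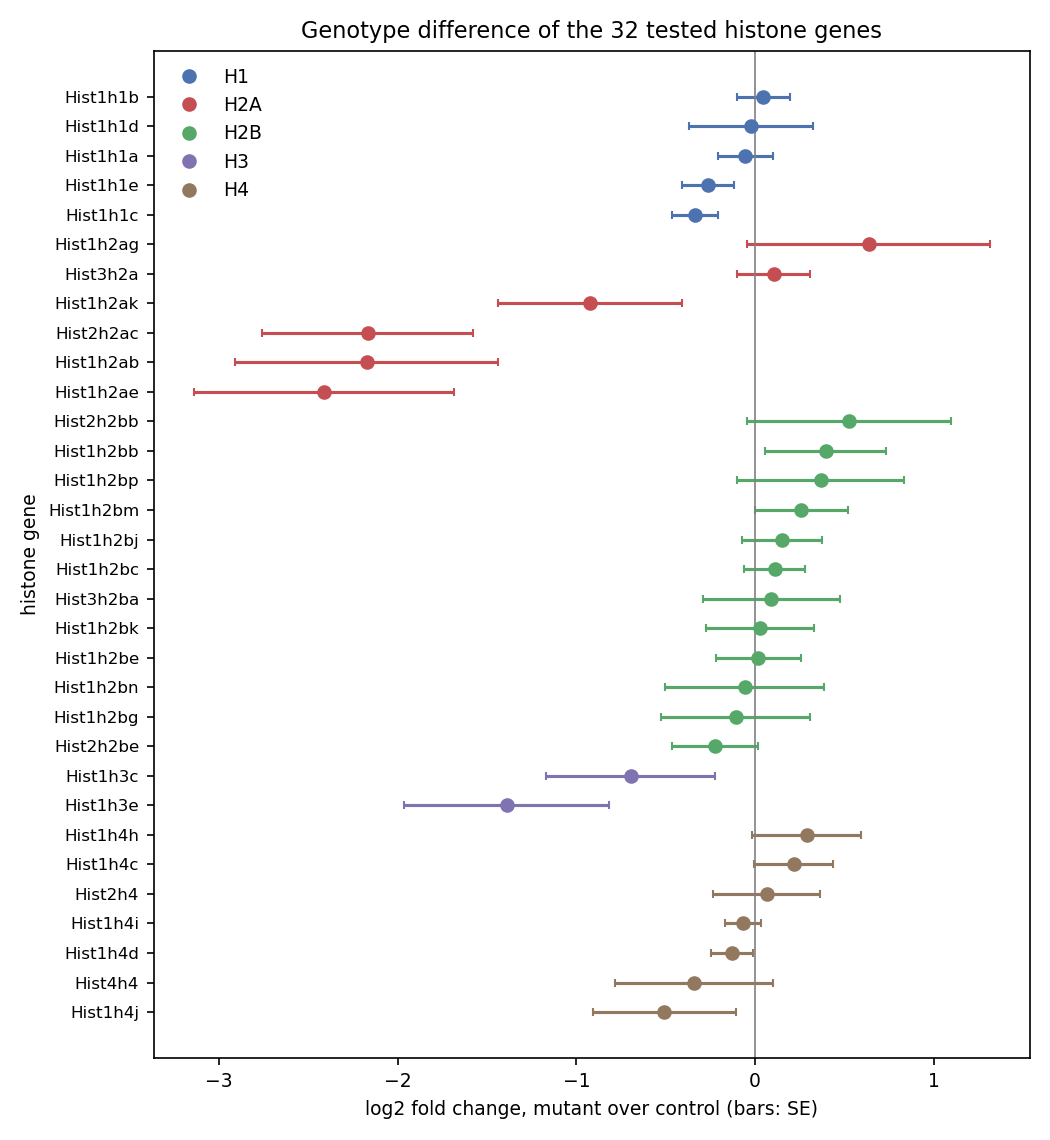
Log2 fold change (horizontal axis, mutant over control) with its standard error for each of the 32 tested histone genes, coloured by type. Hist1h2ae at -2.41, Hist1h2ab at -2.17 and Hist2h2ac at -2.17 lie far to the left of the H1, H2B and H4 genes, and none passed the adjusted threshold.

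The linker histone H1 binds the nucleosome where DNA enters and leaves. Hist1h1b, the H1 gene with most reads, was at 35.18, 34.08, 33.8, 33.4 and 47.72 CPM in controls and 43.5, 57.82, 31.37, 38.53, 30.2 and 31.84 CPM in mutants. Control 5 and mutant 2 stood highest and the groups overlapped. Its log2 fold change was 0.05 (SE 0.15, edgeR adjusted p = 0.895). Hist1h1a, at 8.869 ± 0.599 CPM in controls (SD, n = 5) and 8.68 ± 1.76 CPM in mutants (SD, n = 6), had a log2 fold change of -0.05, and Hist1h1e, at 13.13 ± 1.43 and 11.23 ± 2.39 CPM, one of -0.26 (edgeR adjusted p = 0.326), or -0.08 without control 3 or mutant 6.

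Hist1h1c had the most negative fold change among H1 genes. Its level was 7.439, 8.34, 7.688, 7.088 and 9.179 CPM in controls 1 to 5 and 7.751, 6.483, 5.576, 6.421, 5.671 and 5.951 CPM in mutants 1 to 6. Of the mutants, 5 were below every control, and mutant 1 lay within the control range. It stood at -0.34 (log2, SE 0.13), with -0.15, -0.36, -0.32 and -0.60 in litters A to D, and it did not pass the threshold (edgeR adjusted p = 0.165, and 0.143 to 0.346 when leaving out single libraries). Of the 50-base windows of this gene, 91.46% are found in no other transcript. Hist1h1d had a log2 fold change of -0.02, and Hist1h1t, known from the testis, had 16 reads and was not tested.

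H2A pairs with H2B in the nucleosome, and the summed level of its genes varied strongly between libraries. Summed H2A was 19.3, 7.516, 16.74, 8.83 and 3.714 CPM in controls 1 to 5 and 4.165, 3.969, 2.754, 2.497, 9.087 and 3.558 CPM in mutants 1 to 6. Controls 1 to 4 and mutant 5 were high and control 5 was low with the remaining mutants. The 5 libraries with the highest H2A sum were the same 5 as those with the highest T-run index. Within litters, mutant minus control was -1.72 and -2.23 (log2) in litters A and B, but 0.04 in litter C and -0.50 in litter D.

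Hist1h2ae, the H2A gene with the highest level per kb, had 216, 49, 163, 64 and 4 reads in controls 1 to 5 and 8, 9, 8, 3, 52 and 6 reads in mutants 1 to 6. The same 4 controls and mutant 5 held nearly all its reads, while control 5 was as low as the other mutants. Its level was 5.498 ± 4.85 CPM in controls (SD, n = 5) and 0.949 ± 1.28 CPM in mutants (SD, n = 6). The log2 fold change was -2.41 (SE 0.73, edgeR adjusted p = 0.091), with litter values of -3.51, -4.20, -0.06 and 0.26. Leaving out single libraries moved it from -3.24 (without control 4 or mutant 5) to -1.69 (without control 1), with edgeR adjusted p of 0.0524 to 0.31. DESeq2 gave -2.45 (adjusted p = 0.0405). Without control 5 and mutant 5, a choice made after seeing the data, edgeR gave -4.03 (adjusted p = 0.00989). Those libraries were the ones that went against the difference, and without them only litters A and B held both genotypes. This value is therefore no independent support for a difference. With the T-run index added to the model the estimate changed sign, to 0.45 (adjusted p = 0.91), and the part of that library property in the difference was not tested.

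Hist1h2ab had the same 5 libraries highest. It had 63, 34, 56, 18 and 3 reads in controls 1 to 5 and 5, 3, 1, 3, 28 and 1 reads in mutants 1 to 6. Control 5 was low and mutant 5 high again. Its fold change was -2.17 (log2, SE 0.73, edgeR adjusted p = 0.122), with litter values of -2.92, -4.12, 0.80 and -0.44, and ran from -3.26 to -1.57 (adjusted p 0.0569 to 0.358) over single libraries left out. Without control 5 and mutant 5, again chosen after seeing the data, edgeR gave -3.89 (adjusted p = 0.00898). That fit compared genotypes in litters A and B alone, so it is no independent support. With the T-run covariate the fold change was 0.42 (edgeR adjusted p = 0.925). Among the 5 controls, the counts of Hist1h2ae and Hist1h2ab scattered 70.1 and 15.6 times as much as counting error alone gives (chi-square per degree of freedom), against 1.96 for Hist2h2ac.

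Hist2h2ac, outside the Hist1 cluster, had the smallest adjusted p of the set. It had 13, 17, 29, 21 and 13 reads in controls 1 to 5 and 6, 1, 3, 2, 11 and 0 reads in mutants 1 to 6. Control 5 was among its 5 highest libraries and control 1 was not, while the other 4, mutant 5 included, were among the 5 with the highest T-run index. The 0 reads of mutant 6 allow up to 0.184 CPM (3 reads, counting error only), and by CPM mutant 5, at 0.7516, was just above control 1, at 0.7271, so the groups overlapped by that pair alone. Mutant over control, it gave -2.17 (log2, SE 0.59, edgeR adjusted p = 0.0682), with -1.49, -3.82, -0.62 and -1.88 in the 4 litters. It stayed negative in every alternative that could be run, at -1.51 (SE 1.06, adjusted p = 0.633) with the T-run covariate and between -2.69 and -1.70 when leaving out single libraries (adjusted p 0.0824 to 0.216). Leaving out the filter on low counts put it past the threshold at -2.18 (edgeR adjusted p = 0.000409), where Hist1h2ae and Hist1h2ab were called too. In that setting 1566 of all 29256 genes were called, against 345 of 15821 in the main fit.

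The other tested H2A genes did not share this size of difference. Hist3h2a, with an octamer in its promoter window like the former genes, was at 1.977 ± 0.444 CPM in controls (SD, n = 5) and 2.056 ± 0.448 CPM in mutants (SD, n = 6), a log2 fold change of 0.10. Hist1h2ak had -0.92 (adjusted p = 0.326) on 58 reads and Hist1h2ag 0.64 (adjusted p = 0.641) on 53 reads. Hist1h2ai, with 16 reads, was not tested. All 7 H2A genes overlap a predicted gene, in most by 138 bases, and a read over exons of 2 genes is left out by the counting tool's default. The H2A counts therefore come from parts of the exons.

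**Figure D3:**
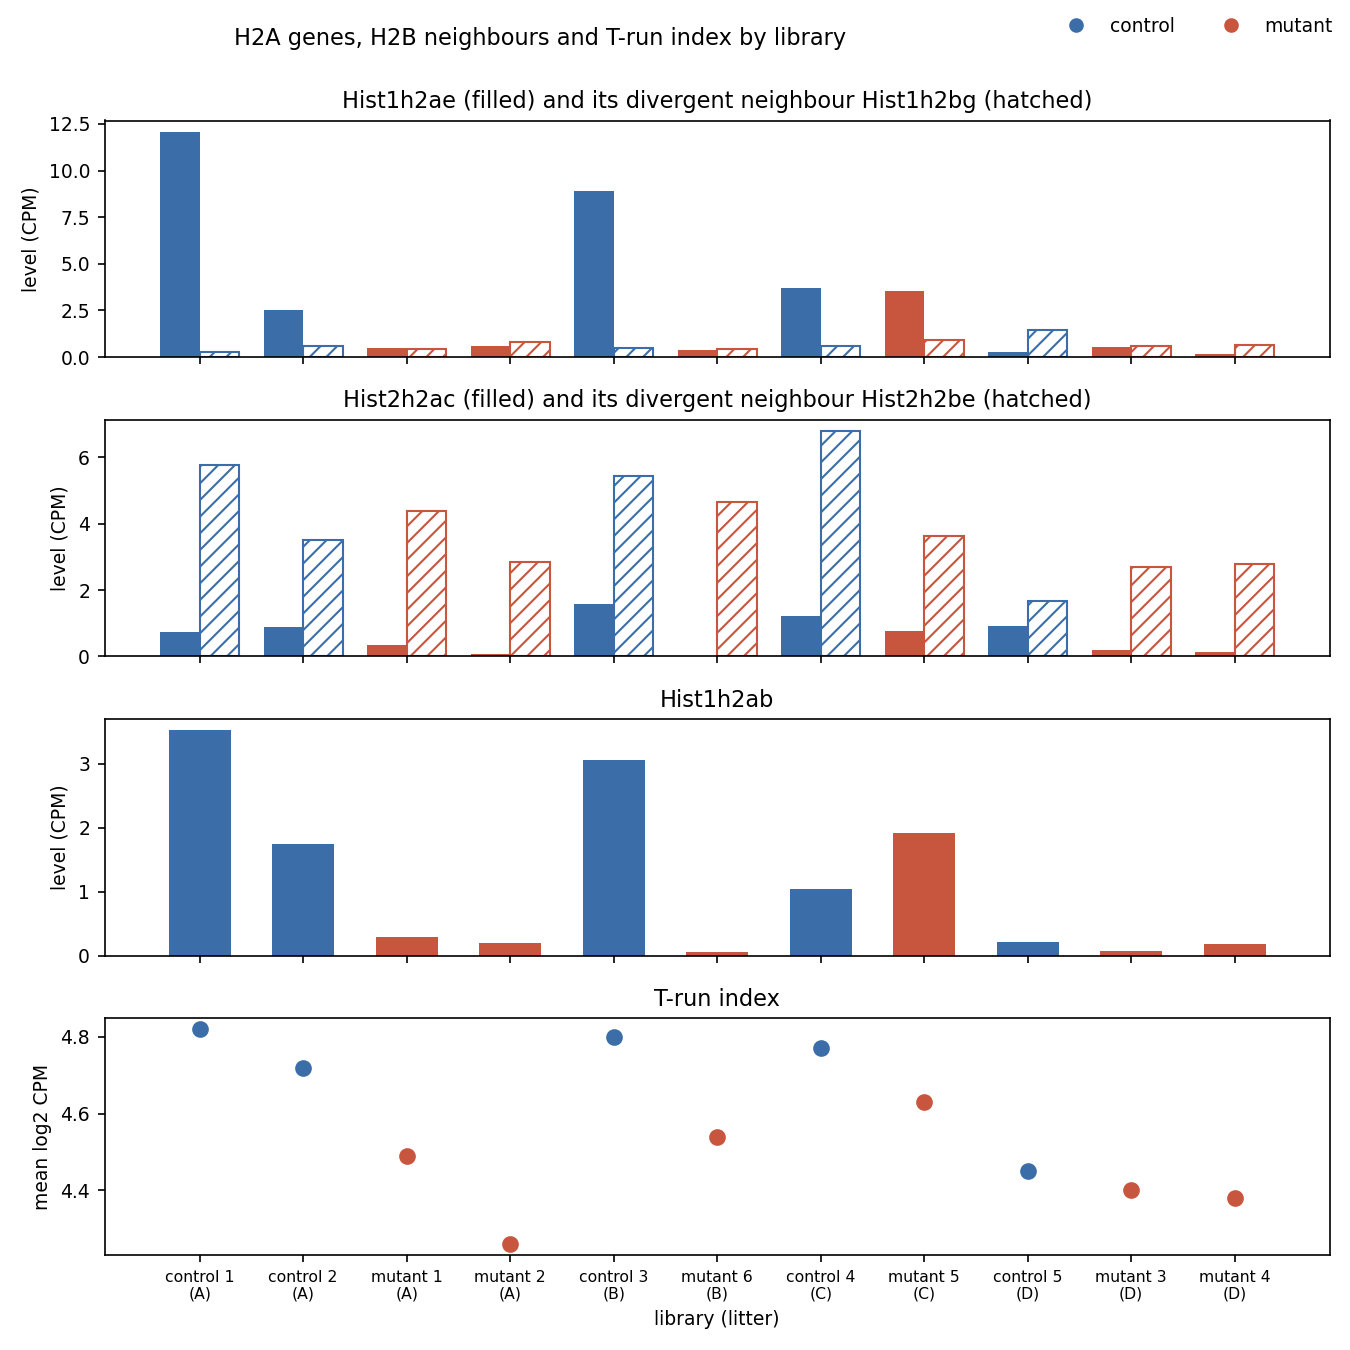
Levels (CPM, bars from 0) by library, ordered by litter, of Hist1h2ae and Hist2h2ac beside the H2B gene across their shared promoter and of Hist1h2ab, with the T-run index (mean log2 CPM) at the bottom; blue is control and red mutant. Hist1h2ae and Hist1h2ab stand high in controls 1 to 4 and mutant 5, the 5 libraries with the highest T-run index (4.63 to 4.82).

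H2B neighbours across the shared promoters gave a contrast. Of 14 head-to-head H2A and H2B pairs in the annotation, 5 had both genes in the set. Hist1h2bg, 286 bases from Hist1h2ae, had 5, 11, 9, 10 and 21 reads in controls 1 to 5 and 7, 12, 9, 11, 13 and 7 in mutants 1 to 6. Control 5, low for Hist1h2ae, was the highest library for Hist1h2bg. On the log2 scale, fold changes were -0.11 for Hist1h2bg and -2.41 for Hist1h2ae.

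Hist2h2be, 238 bases from Hist2h2ac, had 103, 68, 100, 117 and 24 reads in controls and 76, 43, 40, 47, 53 and 76 in mutants. Here control 5 was the lowest library. Its log2 fold change was -0.23 (adjusted p = 0.643) beside -2.17 for Hist2h2ac. In the pair of Hist1h2bj and Hist1h2ag (269 bases apart) the values were 0.15 and 0.64, and in that of Hist1h2bn and Hist1h2ak (295 bases) -0.06 and -0.92. Neither gene of the pair Hist1h2bl and Hist1h2ai was tested, and the difference within pairs was not tested.

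Of the 12 H2B genes tested, 3 were lower and 9 higher in mutants, between -0.23 and 0.52, and none passed the threshold (edgeR; 0 of 12 also at an unadjusted p under 0.05, and 0 by DESeq2 of the 4 with an adjusted p). Hist1h2bm, with the highest H2B level per kb, was at 3.218 ± 0.830 CPM in controls (SD, n = 5) and 3.774 ± 1.26 CPM in mutants (SD, n = 6), a log2 fold change of 0.26 (adjusted p = 0.614). Hist1h2bj was at 3.931 ± 1.52 and 4.374 ± 0.822 CPM, and Hist1h2bc at 6.06 ± 1.20 and 6.544 ± 1.96 CPM. In all 3 genes the difference was smaller than the SD of either group or close to it. Hist1h2bb was the single tested gene higher in mutants in each litter, by 0.36, 0.06, 0.58 and 0.39, with an adjusted p of 0.548. It was named after its values were seen.

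H3 carries many of the chromatin marks on its tail, and its replication-dependent genes were the least counted type. Summed H3 was 5.369, 3.861, 4.961, 3.079 and 1.682 CPM in controls 1 to 5 and 1.851, 2.051, 1.276, 1.308, 4.646 and 0.9816 CPM in mutants 1 to 6. Controls 1 to 4 and mutant 5 were again the high libraries. The litter differences of the sum were -1.24, -2.34, 0.59 and -0.38 (log2), so mutants were lower in 3 litters and higher in litter C.

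Hist1h3c, with the highest H3 level per kb, had 30, 28, 40, 24 and 4 reads in controls 1 to 5 and 12, 8, 9, 7, 35 and 6 in mutants 1 to 6. Its 5 highest libraries were those with the highest T-run index. Its fold change was -0.70 (log2, SE 0.47, edgeR adjusted p = 0.429), and 0.62 (adjusted p = 0.803) with the T-run covariate. Leaving out single libraries moved it from -1.14 without control 4 or mutant 5 to -0.27 without control 3 or mutant 6. Hist1h3e had 13, 12, 18, 14 and 8 reads in controls and 5, 3, 3, 4, 14 and 0 in mutants, and a fold change of -1.39 (log2, SE 0.57; edgeR adjusted p = 0.192). Mutant 5 was the one mutant within the control range.

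The 7 H3 genes below the filter held 13 to 64 reads each. Hist1h3a had 10, 14, 9, 6 and 6 reads in controls and 4, 7, 2, 2, 2 and 2 in mutants, with lower mutant levels in each litter. Hist1h3g had 13, 9, 7, 4 and 2 reads in controls and 2, 3, 2, 2, 8 and 3 in mutants. Mutant 5 again stood apart from the other mutants for Hist1h3g, but not for Hist1h3a. At these depths a difference of a few reads decides the value, and no test was made.

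H4 is the partner of H3 in the nucleosome. Hist1h4d was at 70.14, 72.59, 73, 64.78 and 75.75 CPM in controls 1 to 5 and 77.4, 88.65, 65.16, 74.26, 38.6 and 61.47 CPM in mutants 1 to 6. The controls lay close together and mutant 5 was far below all other libraries. The log2 fold change was -0.13 (SE 0.12, edgeR adjusted p = 0.578), and 0.01 without mutant 5 or control 4, the pair of litter C. Hist1h4i, at 22.08 ± 3.23 CPM in controls (SD, n = 5) and 21.32 ± 2.90 CPM in mutants (SD, n = 6), had -0.07 (SE 0.10). Among H4 genes at 1 CPM or more, Hist1h4c was the highest with 0.22 and Hist4h4 the lowest with -0.34 (edgeR adjusted p = 0.625 and 0.714). Of 7 tested H4 genes, 4 were lower and 3 higher, none called by edgeR (0 also at an unadjusted p under 0.05, and 0 by DESeq2 of the 3 with an adjusted p).

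Mutant 5 therefore combined the lowest H4 sum, 63.2 CPM against 87.85 to 123.6 CPM in the other mutants, with the highest H2A and H3 sums among mutants. Its H1 sum, 53.36 CPM, was the lowest of all libraries as well. H2B did not follow either direction, at 23.78 CPM within the control range of 22.76 to 27.53 CPM. In control 5, H1 and H4 sums were the highest of the controls (80.16 and 108.4 CPM), and H2A and H3 sums the lowest (3.714 and 1.682 CPM).

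Litters were compared one by one. The median difference over the 32 tested genes was 0.16, -0.19, -0.06 and -0.19 (log2) in litters A to D, with 14, 21, 17 and 20 genes lower in mutants. H2A medians were -1.28, -2.35, -0.02 and -0.32, and H3 medians -1.16, -2.71, 0.47 and -0.17, so for both types the low values came from litters A and B. H4 medians were 0.07, 0.02, -0.20 and -0.12. A genotype by litter interaction was found for 0 of the 32 genes (edgeR, 3 coefficients together, smallest adjusted p 0.95; 7 genes at an unadjusted p under 0.05) and for 0 of all 15821 genes (605 unadjusted). That fit had 3 residual degrees of freedom and called no gene at all, so it cannot show that the litters agree. DESeq2 was not run for it.

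**Figure D4:**
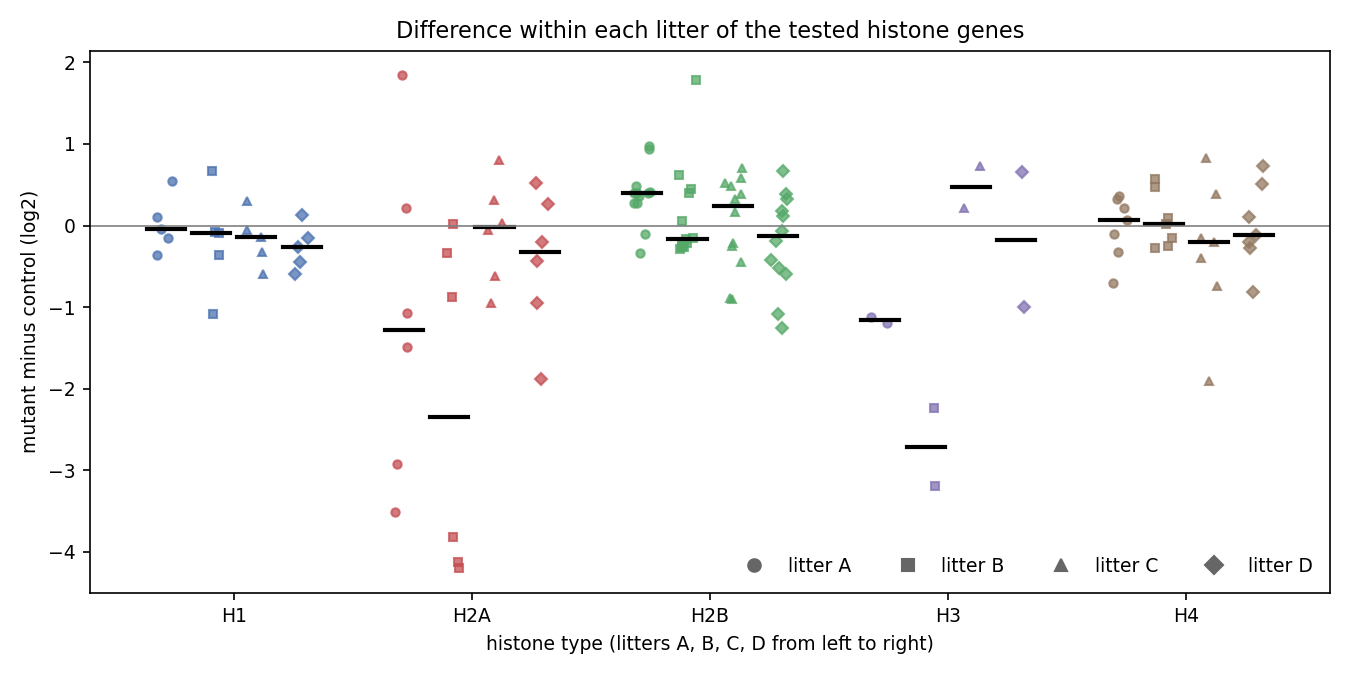
Mutant minus control difference (log2 CPM, vertical axis) of each tested histone gene within litters A, B, C and D, by histone type; black bars are medians. H2A medians were -1.28 and -2.35 in litters A and B and -0.02 and -0.32 in litters C and D, while H1, H2B and H4 medians stayed within -0.26 to 0.40.

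By position, medians lay near 0 throughout. The Hist1 cluster on chromosome 13 falls into blocks of 11, 4 and 26 genes, which lie 2962.6 to 3036.1, 2708.2 to 2716.0 and 987.5 to 1220.8 kb from Gmnn (chr13:24751845-24761923, mm10), itself on that chromosome. Their median log2 fold changes were -0.01, 0.09 and -0.11, and the 7 genes outside Hist1 had 0.06. By hairpin, the median was -0.02 in the 25 tested genes where a stem-loop was found and -0.05 in the other 7. Among the latter, Hist1h1b, Hist1h2ak, Hist1h2bn and Hist2h2bb have transcripts that end at the stop codon and could not be searched. These medians therefore do not compare genes with and without a hairpin. Of the 8 genes with at least 80% of windows of their own, 7 were tested, with a median of -0.05 and a range of -0.34 to 0.06.

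Other genes of the histone supply were compared from lists, whose counts stand beside the shares over all genes given above: 2.18% called by edgeR, 21.4% at an unadjusted p under 0.05 and 10.1% called by DESeq2. None of the 11 variant histones made independently of replication was called by edgeR (1 at an unadjusted p under 0.05, median -0.14), and DESeq2 called 1, H1f0. H3f3b, which encodes H3.3, was at 1479 ± 63.4 CPM in controls (SD, n = 5) and 1347 ± 102 CPM in mutants (SD, n = 6), a log2 fold change of -0.14 (adjusted p = 0.283), and H2afy, which encodes macroH2A1, had -0.14 (adjusted p = 0.439). Their levels per kb were 472.7 and 66.32 CPM. H2afx, whose mRNA can end in the replication-dependent hairpin, was named after its values were seen. It was at 193.3, 49.83, 94.21, 45.89 and 49.68 CPM in controls and 57.96, 47.17, 49.64, 47.09, 56.37 and 34.23 CPM in mutants, high in controls 1 and 3 alone, with a log2 fold change of -0.70 (edgeR adjusted p = 0.245).

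Of 16 genes for histone mRNA 3 prime processing and turnover, 0 were called by edgeR (3 at an unadjusted p under 0.05, median -0.04) and 2, Slbp and Cstf2, by DESeq2. Slbp stood at 216.1, 212.8, 199, 227.2 and 244 CPM in controls and 183.5, 205.1, 188.5, 193.6, 195.1 and 174.7 CPM in mutants. Mutant 2 alone reached the control range. The log2 fold change was -0.22 (SE 0.06, edgeR adjusted p = 0.0748), lower in each of the 4 litters, and DESeq2 gave -0.22 (adjusted p = 0.0266). Without mutant 2 edgeR gave -0.26 (adjusted p = 0.0407), and without any other single library the adjusted p was 0.116 to 0.222. With upper-quartile scaling it was 0.174, and with offsets for GC and exon length the estimate was -0.16 (adjusted p = 0.238). The cap-binding subunit gene Ncbp2 was at 278 ± 7.07 CPM in controls (SD, n = 5) and 277.7 ± 9.47 CPM in mutants (SD, n = 6), a log2 difference well inside its SE of 0.06.

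Histone chaperones, which carry new histones to DNA, had 0 of 18 called by edgeR or DESeq2 (6 by edgeR at an unadjusted p under 0.05, median -0.04). The H1 and H3 chaperone gene Nasp had a log2 fold change of -0.02 and Rbbp4, a subunit of the CAF-1 complex, one of -0.14 (edgeR adjusted p = 0.846 and 0.185). Among 16 S phase genes 3 were called by edgeR and 7 by DESeq2 (9 by edgeR at an unadjusted p under 0.05, median 0.07). Over all genes these shares were 2.18%, 10.1% and 21.4%. Ccne1, which encodes cyclin E1, rose from 73.45 ± 16.4 to 109.5 ± 6.77 CPM (SD, n = 5 and 6; log2 0.56, edgeR adjusted p = 0.0353), and Cdc25a, a CDK2-activating phosphatase, rose by 0.31 (adjusted p = 0.0475). Ccne2, which encodes cyclin E2, fell by 0.47 on the log2 scale (edgeR adjusted p = 0.0291). Cyclin E with CDK2 is known to activate NPAT, the coactivator of these histone genes, and Ccne1 and Ccne2 moved in opposite directions here. These calls depended on which libraries were in the fit. Leaving out one library at a time, Ccne1 kept its call only without control 5, mutant 2 or mutant 3, Ccne2 only without control 5 or mutant 2, and Cdc25a only without control 5, with adjusted p of up to 0.176, 0.145 and 0.199 for the others and no change of direction.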

How the data were processed

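Read counts per gene name were deposited by the authors, who made them with featureCounts 1.4.6-p4 on mm10 with GENCODE M9 exons and a mapping quality of at least 10, per the file headers. The header sets no option for strand, multi-mapping reads or reads over several genes. STAR 2.5.4b was the aligner, per the submitters' processing notes. The header lists 12 alignment files and the table has 11 sample columns. Ribosomal RNA was depleted from total RNA, per the labels' protocols. The recovery of RNA without a poly(A) tail was not tested.

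Groups and litters come from the sample titles. All genes were fitted together with edgeR 4.0.16 in R 4.3.3: filterByExpr, TMM scaling, litter as a block plus genotype, quasi-likelihood F test, two-sided, Benjamini-Hochberg over the 15821 genes kept, threshold 0.05. The test recovered known large changes in simulated counts, where the changed genes had means above 1 CPM and libraries had no litter effects. How often it recovers small changes, such as those seen in most H1, H2B and H4 genes, is not given here. Tested histone genes below 1 CPM, Hist2h2ac among them, were not covered by that simulation. CPM are relative to TMM-scaled totals, and log2 CPM of single litters used a prior count of 2. The titles pair embryos by litter. Deviations from the group mean correlated at -0.16 to 0.37 (median 0.13) over the 8 pairs of a control and a mutant from 1 litter and at a median of -0.02 over the other 22, across genes, which are not independent replicates. No libraries of a group agreed within sampling noise. Labels do not say more of how embryos were sampled, so p-values measure the spread between these embryos.

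Histone genes, lists and tests were chosen with earlier results of these data known. Genes were named by rule: Gmnn; per histone type the 3 highest by CPM per kb, and the largest rise and fall among tested genes at 1 CPM or more; the smallest adjusted p; in each list those called, or else the 2 highest, with Slbp always. Other histone genes are named to account for the set. Stem-loops and shared windows were searched in GENCODE M21 transcripts, promoters in RefSeq windows (GRCm38.p6). DESeq2 1.42.0, other scalings, filters, offsets for GC and exon length, the T-run covariate, and each library or litter left out were alternatives.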

Additional observations from a re-analysis of the deposited data

Results flagged for a closer look

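In 7 cases a single library stood apart from the others of its group by Dixon's criterion, among 37 measures in both groups; chance gives about 3.7, at 1 in 20 groups. Mutant 5 stood apart in 4 genes. Its log2 CPM was 1.88 for Hist1h2ae (other mutants -1.74 to -0.48), 1.02 for Hist1h2ab (-2.46 to -1.29), 1.33 for Hist1h3c (-1.03 to -0.30) and -0.58 for Hist1h3g (-2.08 to -1.65). Control 5 stood apart in 3 genes, at 5.58 for Hist1h1b (other controls 5.07 to 5.14), -1.32 for Hist1h3c (0.60 to 1.20) and 4.10 for Rpph1 (2.65 to 3.01). These genes are not independent measures of a library.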

How the results depend on the processing

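The count of histone genes called moved from 0 to 3 of 48 without the filter on low counts. In that setting 1566 of all 29256 genes were called. With DESeq2 it was 1 of the 12 with an adjusted p, against 10.1% of all genes with an adjusted p. Without control 5 and mutant 5 together, a choice made after seeing the data, it was 2 of 36. There 782 of all 16664 genes were called. The count stayed at 0 otherwise, each library left out included (range 0 to 0). Without the filter, 2 genes had an interaction. Pathway genes called (3) became 9 without the filter, 10 with DESeq2, 5 with the replicate block and GC and length offsets, and 0 without the replicate block, with the T-run covariate or without litter A, B or C; leaving out single libraries gave 0 to 5. With the T-run covariate the medians became -0.30 (all genes of the set), -0.37 (H1), 0.16 (H2A), -0.41 (H2B), -0.07 (H3) and -0.30 (H4). The H1 median was -0.16 without the filter and with the 1 CPM filter, -0.20 with the replicate block and offsets, -0.25 without litter A, and -0.18 to -0.05 when leaving out single libraries. The H2A median was -2.69 without litter C and -2.15 to -1.20 over single libraries. The H4 median was 0.06 without litter A or without control 5 and mutant 5, and -0.12 to 0.06 over single libraries. Gmnn was -0.64 without the replicate block (adjusted p = 0.0501), -0.71, -0.65 and -0.57 without litters B, C and D, and -0.75 to -0.57 over single libraries. With the T-run covariate Gmnn was -1.04 (SE 0.10, edgeR adjusted p = 0.00493). The block changed no call among the histone genes. The causes were not tested. Uniqueness was judged against transcripts, not a genome, which was not used here. Depth limits the 23 genes with fewer than 100 reads.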
